A study of Mus musculus with 4 samples.

Results

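The enzymes that feed and run the tricarboxylic acid (TCA) cycle and those of mitochondrial fatty acid oxidation were followed in myogenic cells of regenerating mouse muscle. The 33 genes were a fixed list of enzyme subunits, taken as every probe set whose platform annotation gave one of these symbols alone. They were listed by name, but with earlier results of these data known. They made up 17 genes of pyruvate dehydrogenase and the TCA cycle and 16 genes of fatty acid oxidation, out of 12394 named genes on the arrays, and were read by 60 probe sets. C57BL/6 mice of 8 to 12 weeks gave the cells, from the hind limbs. All 4 groups had been injured with cardiotoxin, a snake toxin that kills muscle fibres and starts regeneration, and an uninjured group was not analysed here. Cells were taken on day 2, 3, 5 or 14 after injury and were not cultured, and each day was read on 1 Affymetrix mouse 430A array. The labels call them myogenic cells and name the antibody SM/C-2.6, and no source used here says how many animals went into a sample. With 1 array a day no difference has a replicate check or a p-value. A difference of 2-fold or more is called, which is a size and not a test.

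The TCA cycle oxidises acetyl groups in the mitochondrial matrix and hands the electrons to the respiratory chain. Pyruvate dehydrogenase makes the acetyl-CoA from the end product of glycolysis, while beta-oxidation makes it from fatty acids that enter through the carnitine shuttle and are shortened step by step. Resting muscle stem cells are known to lean on fatty acid oxidation, and activated and differentiating myoblasts to change their use of glycolysis and mitochondria.

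Signals below are MAS5 signals in arbitrary units, scaled so that all arrays share a 2% trimmed mean, and values under 43.0, the median of all scaled values, were set to that floor. Each gene is read from the probe set whose log2 signal was highest on average. For all 33 genes this probe set lay above the floor on all 4 arrays, with signals from 82.5 to 4895, so no member was lost to the floor and no ratio from these probe sets is a bound. Between probe sets of one gene, over all genes, a log2 ratio varied with an SD of 0.36, 0.37 and 0.32 for the 3 consecutive steps and of 0.55 for day 14 against day 2. This is the only spread that the arrays give. It leaves out the spread between animals and any difference between arrays that the probe sets of a gene share.

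Of 9 myogenic markers, 8 were above the floor on day 2, with Pax7 under it, and 9 on the later days. Their summed signal was 8357, 14782, 11889.5 and 10757 on days 2, 3, 5 and 14. The summed signals of the other marker lists also differed between the days, which does not show by itself that cell content changed. Summed over 19 muscle fibre genes, the signal on days 2, 3, 5 and 14 was 1607, 16054, 7915 and 4025, with Myh2, Myh4, Myh7 and Cox7a1 under the floor on every array. The sum of 15 macrophage markers was 354, 1329, 4168 and 3550.1 on the same days, with 4, 8, 13 and 14 of them above the floor. That of 12 fibroblast markers was 3661, 10682, 24490.4 and 30173, with 6, 8, 10 and 11 above the floor. Endothelial markers summed to 111 on day 2 and 697 on day 14, with Pecam1 and Cdh5 under the floor throughout. The 7 adipocyte markers summed to 978, 1151, 1032 and 3164, with Lpl and Fabp4 highest on day 14, while Adipoq, Cidec, Pparg, Lep and Retn were under the floor on all arrays. For Gapdh, the signal at the 3' end of the transcript over that at the 5' end, which tracks RNA length, was 2.17, 1.88, 2.87 and 2.84 on days 2, 3, 5 and 14. For Actb it was 1.80, 2.20, 2.19 and 2.14, with no such difference between day 3 and the later days. The part of these differences in the results below was not tested, and fewer cells of a type and less RNA per cell cannot be told apart in bulk samples.

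The TCA cycle genes and the fatty acid oxidation genes took different courses. Of the 17 TCA genes, 8 had their highest signal on day 2 and 9 on day 3, and none on day 5 or 14, although with the values as deposited 1 peaked on day 5 and 1 on day 14, and with quantile normalization 1 peaked on day 5. Of the 16 fatty acid oxidation genes, none was highest on day 2, 10 were highest on day 3 and 3 each on the later days, while day 2 held the lowest signal of 8. As deposited, the peaks of this arm were spread as 2, 5, 5 and 4 genes over the same days. The map of signals by gene and array shows the upper blocks mostly red on the first 2 days and pale or blue later, and a mixed pattern in the lower part.

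**Figure D1:**
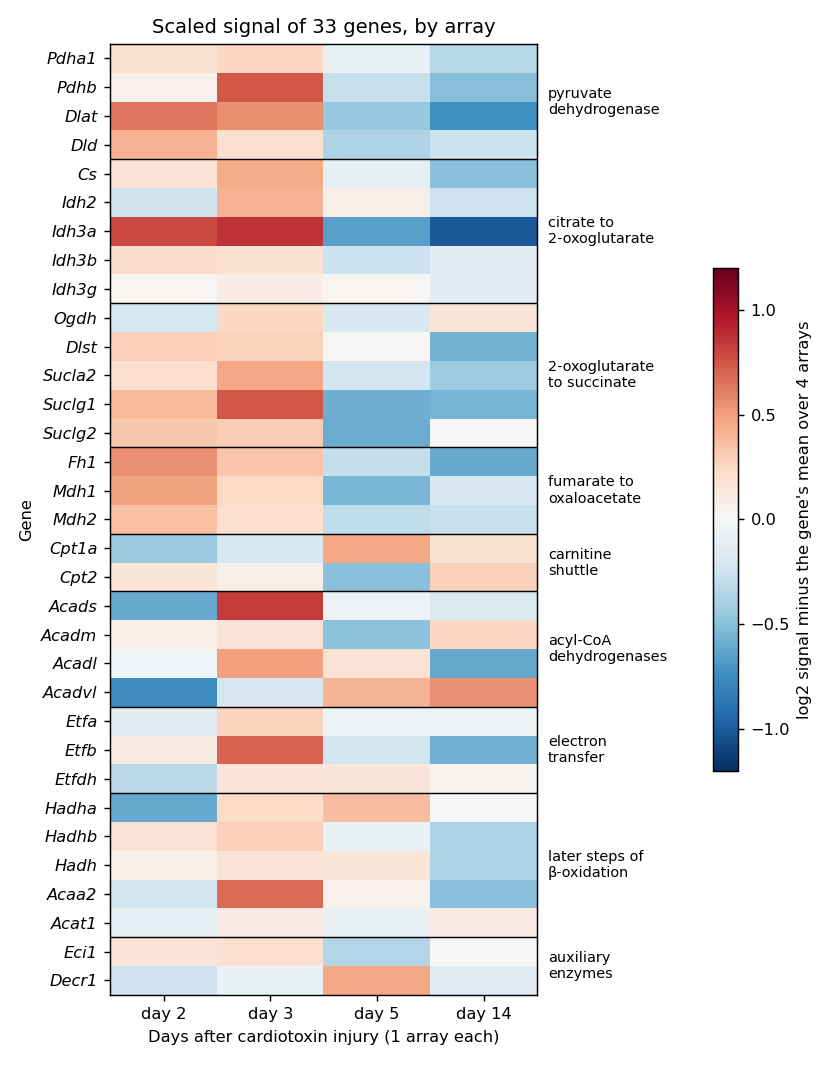
Scaled signal of the 33 genes on the 4 arrays, as log2 signal minus the mean of the gene over the arrays (colour), with genes in rows grouped by their step in metabolism and days in columns. Idh3a, Dlat and Fh1 go from red on day 2 to blue on day 14, and Acadvl from blue to red.

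Most differences were smaller than 2-fold. On day 3 against day 2, 1 of the 33 genes was called, Acads, which was higher, where 6.69% of 6991 measured genes were called higher and 1.8% lower. On day 5 against day 3, 4 genes were called, all lower and all of the TCA arm: Idh3a, Suclg1, Pdhb and Dlat. Over all 7523 measured genes, 5.97% were called lower at that step and 11.6% higher. As deposited, with no scaling, 2 of the 4 were past 2-fold, Idh3a and Suclg1, and 2.62% of all genes were lower. On day 14 against day 5, none of the 33 was called, where 4.81% of 7709 genes were higher and 3.1% lower. Over the whole course, day 14 against day 2, Idh3a, Dlat and Fh1 were lower and Acadvl was higher, where 14.8% of 7668 genes were lower and 22.8% higher.

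The promoters of the genes called lower on day 5 against day 3 are shown because that step had the most consecutive calls. Their shared direction at that step follows from this choice. On day 3 against day 2 their log2 ratios were 0.70 for Pdhb, 0.36 for Suclg1, 0.07 for Idh3a and -0.07 for Dlat. Of the 33 genes, 29 were found in the RefSeq promoter table of build GRCm38.p6, and Idh3a, Acaa2, Acat1 and Decr1 were not. The 250 bases before the start of transcription are printed for the 3 called genes that the table holds, in gene orientation. The capitals mark matches on either strand to the GC box GGGCGG or the CCAAT box.

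Suclg1, chr6:73248255-73248504, plus strand: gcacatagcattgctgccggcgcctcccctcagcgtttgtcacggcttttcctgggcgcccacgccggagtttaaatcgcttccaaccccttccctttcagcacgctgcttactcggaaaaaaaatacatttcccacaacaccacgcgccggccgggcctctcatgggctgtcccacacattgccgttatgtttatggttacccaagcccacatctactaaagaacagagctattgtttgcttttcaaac
Pdhb, chr14:8172993-8173242, minus strand: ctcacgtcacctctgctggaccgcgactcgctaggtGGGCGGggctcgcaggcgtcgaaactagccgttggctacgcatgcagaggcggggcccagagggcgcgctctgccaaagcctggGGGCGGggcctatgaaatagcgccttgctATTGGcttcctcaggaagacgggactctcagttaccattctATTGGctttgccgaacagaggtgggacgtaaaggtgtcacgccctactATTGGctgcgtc
Dlat, chr9:50659781-50660030, minus strand: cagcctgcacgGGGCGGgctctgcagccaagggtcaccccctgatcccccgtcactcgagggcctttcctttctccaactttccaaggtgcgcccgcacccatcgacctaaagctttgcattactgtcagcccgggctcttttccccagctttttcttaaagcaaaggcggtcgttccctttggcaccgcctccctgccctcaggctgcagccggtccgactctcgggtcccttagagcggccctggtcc

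Pdhb held 2 GC boxes and 3 CCAAT boxes, all of the latter as ATTGG, Dlat held 1 GC box, and Suclg1 had no match. Over the 29 members, 19 had a GC box in the 250 bases of at least 1 listed start (65.5%), against 35.4% of all 27025 genes in the table, and 14 had a CCAAT box (48.3%), against 37.5%. The members' promoters also had a higher median GC content, of 59.4% against 52.4% over all promoters. Neither difference was tested. The half-site TCAAGGTCA of the estrogen-related receptors was found in 0 of the 29 and in 0.422% of all genes, and the direct repeat bound by the PPAR receptors, 2 half-sites with 1 base between them, in 0 and in 0.0407%. The shorter nuclear receptor half-site AAGGTCA, which the longer one contains, was found for Acadm alone, and in 4.70% of all genes. The palindromic NRF1 motif was found for Etfdh alone (0.877% of all genes), the CRE motif TGACGTCA for Mdh2 and Ogdh (1.77%), the Myc E-box CACGTG for Ogdh (6.86%) and the GABP motif CCGGAAGT for Cpt2 (3.23%). Both strands were searched for each motif. A match says that the letters are there and not that a factor binds.

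Pyruvate dehydrogenase is a complex of a decarboxylase (Pdha1 and Pdhb), the acetyl transferase Dlat and the dehydrogenase Dld, which is shared with the 2-oxoglutarate complex. All 4 genes were lower on day 5 than on day 3. Pdhb, the beta subunit of the decarboxylase, read 1537, 2489, 1222 and 1039.9 on days 2, 3, 5 and 14. It thus stood highest on day 3 and was 2.04-fold lower on day 5, and its values on days 2 and 5 were closer to each other than to day 3. Its weaker second probe set, near the floor, gave a log2 ratio of -0.50 for that step. The call held under 5 of 8 alternatives of scaling, floor and probe set, with log2 ratios of -0.72 as deposited, -0.96 after quantile normalization and -0.76 for the mean of both probe sets.

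Dlat, which carries the lipoyl arm that takes up the acetyl group, read 697, 663, 327 and 269 on days 2, 3, 5 and 14. Days 2 and 3 were alike, and day 5 was 2.03-fold lower than day 3 and day 14 2.59-fold lower than day 2. The day 5 call held under 6 of 8 alternatives, with log2 ratios of -0.72 as deposited and -0.99 with a pseudocount of 16 in place of the floor, and the day 14 call under all 8. All 3 of its probe sets were lower on day 5, at log2 ratios from -1.30 to -0.74, but they spread from -1.49 to -0.42 for day 14 against day 2. Pdha1, the alpha subunit that kinases switch off by phosphorylation, read 1390.3, 1452, 1145 and 963, short of a call at each step. The second Pdha1 probe set read 556, 539, 233 and 138, with day 5 under day 3 by a log2 ratio of -1.21 and day 14 under day 2 by one of -2.02, so both probe sets were lower but by unequal amounts. Dld had its highest signal, 539, on day 2 and its lowest, 312, on day 5.

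The first steps of the cycle are citrate synthase (Cs), which joins acetyl-CoA to oxaloacetate, and the isocitrate dehydrogenases. Idh3a encodes the catalytic subunit of the NAD-dependent enzyme, and it had the largest difference of all 33 genes. It read 2149, 2262, 792 and 619 on days 2, 3, 5 and 14. The 2 early arrays were alike and both later ones were lower, day 5 being 2.86-fold under day 3, and day 14 3.47-fold under day 2. Its 3 probe sets gave log2 ratios from -1.51 to -0.85 for the former and from -1.98 to -1.64 for the latter, so each probe set was past 2-fold over the whole course. The day 5 call held under 7 of 8 alternatives, the exception being the probe set at -0.85, and the day 14 call under all 8.

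The other subunits of this enzyme did not share that course. They were singled out after their values were seen. Idh3b, a regulatory subunit, read 1679, 1645, 1210.2 and 1319 on days 2, 3, 5 and 14, and Idh3g, the gamma subunit, read 1308, 1374, 1311 and 1174. For day 5 against day 3 the probe sets of Idh3b lay between -0.44 and -0.31 and those of Idh3g between -0.30 and -0.07, none inside the range of the Idh3a probe sets. For day 14 against day 2 they lay between -0.35 and -0.09 and between -0.16 and -0.06. The plot of probe sets by subunit shows 3 lines for Idh3a that drop after day 3, below all lines of the other subunits.

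**Figure D2:**
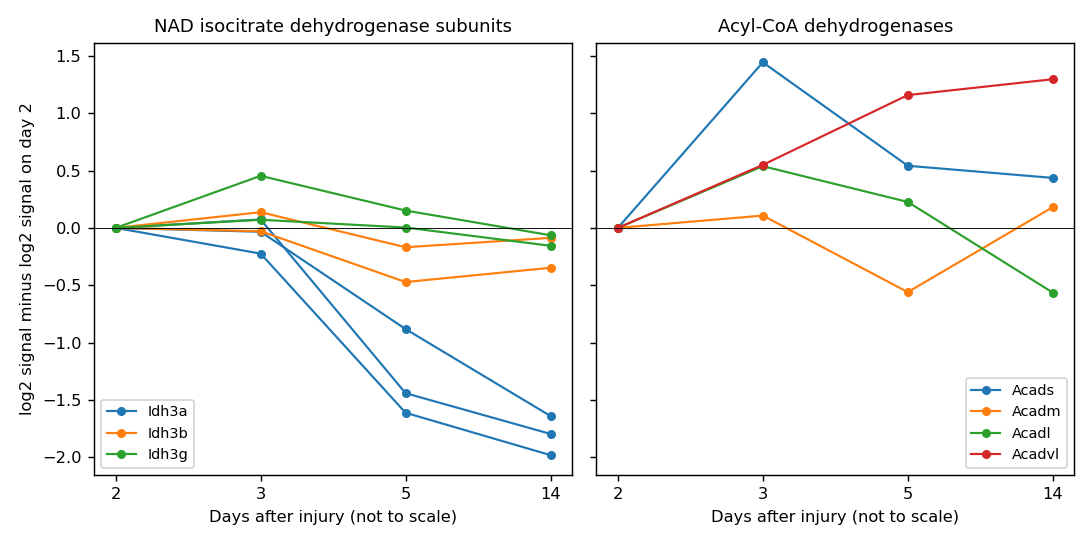
Left, every probe set of the 3 subunits of NAD-dependent isocitrate dehydrogenase, and right, the 4 acyl-CoA dehydrogenases, as log2 signal minus the log2 signal of the same probe set on day 2, by days after injury (1 array a day, probe sets above the floor on all 4 arrays). The Idh3a lines end between -1.98 and -1.64 on day 14 and those of Idh3b and Idh3g between -0.35 and -0.06, while Acadvl ends at 1.30 and Acadl at -0.56.

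Idh2, the NADP-dependent mitochondrial enzyme, peaked on day 3, at 1318, 2067, 1635 and 1302 on days 2, 3, 5 and 14. Its levels on days 2 and 14 differed by less than the spread between probe sets. Cs read 2357, 2846, 1944 and 1476, with day 14 lowest and no step past 2-fold. For day 14 against day 2 the 3 Cs probe sets gave log2 ratios from -1.80 to -0.68, so the size of the difference depended on the probe set, while its direction did not.

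Between 2-oxoglutarate and succinate stand the 2-oxoglutarate dehydrogenase complex (Ogdh and Dlst) and succinyl-CoA ligase, whose shared alpha subunit Suclg1 pairs with an ATP-forming (Sucla2) or a GTP-forming (Suclg2) beta subunit. Suclg1 read 1275, 1633, 646 and 661 on days 2, 3, 5 and 14. Days 5 and 14 were alike and both under days 2 and 3. The step from day 3 to day 5 was 2.53-fold, past 2-fold under all 8 alternatives. Suclg1 has 1 probe set and signals above every floor tried, so only the scalings and a pseudocount of 16 could move that ratio. Both beta subunits, added after their values were seen, were lower on day 5 as well but short of a call. Sucla2 read 2041, 2457, 1514 and 1323, and Suclg2 read 171, 167, 90.5 and 134. The log2 ratios of day 5 against day 3 were -0.70 and -0.89, and on day 14 Suclg2 stood between its early and its day 5 signal.

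Ogdh, the decarboxylase that is often named as a control point of the cycle, was the one TCA gene higher on day 14 than on day 2, beside which Idh2 was also above 0 as deposited, and Idh2 and Idh3g after quantile normalization. It read 322, 441, 329 and 411 on days 2, 3, 5 and 14, a log2 ratio of 0.35 for day 14 against day 2, within the SD between probe sets. Dlst, its transferase partner, went the other way over the same days, with a log2 ratio of -0.85.

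The last steps make oxaloacetate again. Fh1, fumarase, read 1856, 1602, 1042 and 836 on days 2, 3, 5 and 14. Each later array was lower than the one before, no single step reached 2-fold, and day 14 was 2.22-fold below day 2. This call held under 7 of 8 alternatives, with a log2 ratio of -0.98 after quantile normalization. Fh1 has 1 probe set, so here too only the scalings and the pseudocount could move the ratio. Mdh1, the cytosolic malate dehydrogenase of the malate-aspartate shuttle, read 1339, 1132, 653 and 843, lowest on day 5. Its other 2 measured probe sets were not lowest on day 5. They gave log2 ratios of 0.002 and 0.007 for day 5 against day 2, against -1.04 for the one used. For day 14 against day 2 they gave -0.13 and 0.19, against -0.67, so the direction of that difference depended on the probe set. The mitochondrial Mdh2 read 4895 on day 2 and 3162 on day 14, with all steps under 2-fold.

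Fatty acids enter the mitochondrion through the carnitine shuttle. Cpt1a, the outer membrane transferase whose inhibition by malonyl-CoA sets the rate of entry, read 193, 226, 362 and 298 on days 2, 3, 5 and 14. It was highest on day 5, against the course of the TCA genes, but a weaker Cpt1a probe set was lower on day 5 than on day 3 (log2 ratio -0.89 with its day 5 signal at the floor, against 0.68). Cpt2, the inner membrane transferase, had signals between 91.4 and 157, lowest on day 5 and highest on day 14.

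The acyl-CoA dehydrogenases start each round of beta-oxidation and differ in the chain length they accept, from short (Acads) over medium (Acadm) and long (Acadl) to very long chains (Acadvl). The 4 genes had 4 different courses. Acads read 107, 292, 156 and 145 on days 2, 3, 5 and 14. Day 3 stood above the other 3 arrays, 2.72-fold over day 2, and this was past 2-fold under all 8 alternatives. Acads too has 1 probe set and signals above every floor tried, so only the scalings and the pseudocount could move that ratio. Muscle fibre genes were highest on the same day 3 array.

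Acadvl took another course, with 476, 696, 1062 and 1168 on days 2, 3, 5 and 14. Each later array was higher than the one before, and day 14 was 2.46-fold over day 2, past 2-fold under all 8 alternatives. As for Acads, only the scalings and the pseudocount could move this ratio. Acadvl was the one member called higher over the whole course. Macrophage and fibroblast markers too were higher on days 5 and 14 than on the earlier days. Acadm read 626, 674, 424 and 709, lowest on day 5, and the log2 ratio of day 14 against day 5 was 0.74. Acadl read 1153, 1674, 1349 and 780.0, highest on day 3 and lowest on day 14. Acadvl and Acadl share only the day 2 to day 3 step, at log2 ratios of 0.55 and 0.54.

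The electrons of this first oxidation pass to the electron transfer flavoprotein (Etfa and Etfb) and from it through Etfdh to ubiquinone. Etfa read 1326, 1758, 1393 and 1396 on days 2, 3, 5 and 14, so that day 3 alone stood out, by 1.33-fold over day 2. Its partner Etfb, named after its values were seen, also peaked on day 3, at 890 against 584 on day 2, and then stood at 468 and 366. Although both subunits form 1 protein, the log2 ratio of day 14 against day 3 was -0.33 for Etfa and -1.28 for Etfb. Etfdh lay between 340.3 and 476.

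The later steps are run by the trifunctional protein (Hadha and Hadhb), the medium and short chain dehydrogenase Hadh and the thiolases Acaa2 and Acat1, the latter also acting in ketone body and isoleucine breakdown. Hadha read 82.5, 147, 162 and 126 on days 2, 3, 5 and 14, lowest on day 2. Hadhb had its highest signal on day 3 and its lowest, 707, on day 14. Acaa2, named after its values were seen, read 419, 787, 506 and 345, so day 3 stood above the other arrays. All 3 Acaa2 probe sets were higher on day 3 than on day 2, at log2 ratios from 0.82 to 1.14, and lower on day 5 than on day 3, from -1.27 to -0.64. The probe sets of Acat1 disagreed over the course, with log2 ratios of day 14 against day 2 from 0.12 to 1.25. Those of Hadh disagreed in sign, at -0.45 and 0.37.

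Unsaturated fatty acids need helper enzymes, of which Eci1 shifts and Decr1 reduces double bonds. Eci1 read 345, 355, 243 and 311 on days 2, 3, 5 and 14 and was lowest on day 5. Decr1 was highest on day 5, at 653 against signals from 399 to 449.8 on the other days. A weaker Decr1 probe set, under the floor on day 2, read 28.3, 55.1, 74.8 and 116 and was highest on day 14. For day 14 against day 5 it gave a log2 ratio of 0.64, against -0.60 for the one used. Cpt1a, Acadvl and Decr1 thus had log2 ratios of 0.68, 0.61 and 0.54 for day 5 against day 3, and with Hadha (0.15) they were the 4 of 16 above 0 at a step where all 17 TCA genes lay below 0.

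Set side by side, the arms differed in their medians more than in their calls. On day 3 against day 2, 15 of 16 fatty acid oxidation genes had a ratio above 0 (10 as deposited), with a median log2 ratio of 0.31 (0.13 to 0.38 under the alternatives). The 17 TCA genes had a median of 0.06, close to that of all measured genes. As deposited, it was -0.12, as for all genes. At 1.5-fold, 6 members were higher, namely Pdhb, Idh2, Acads, Etfb, Hadha and Acaa2, and none lower, where 17.8% of all genes were higher and 9.1% lower. On day 5 against day 3, all 17 TCA genes were below 0 (15 to 17 under the alternatives), with a median of -0.57, where all measured genes had a median of 0.06 and 46.5% of them were below 0. As deposited, these medians were -0.27 and 0.33. The fatty acid oxidation genes had a median of -0.32 with 12 of 16 below 0, and of -0.02 as deposited. At 1.5-fold, 8 TCA genes were lower and none higher, and 4 fatty acid oxidation genes were lower and 2 higher, where 17.1% of all genes were lower and 22.9% higher. The plot of trajectories shows the TCA median under its day 2 level from day 5 on and that of the other arm above it.

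**Figure D3:**
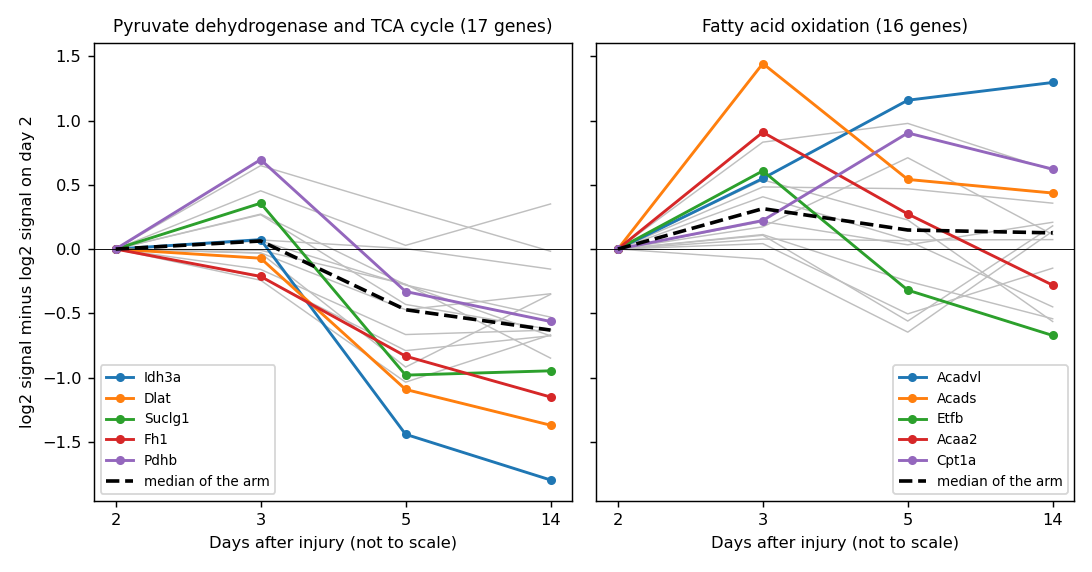
Log2 signal of each gene minus its log2 signal on day 2, by days after injury (1 array a day), for the 17 genes of pyruvate dehydrogenase and the TCA cycle (left) and the 16 genes of fatty acid oxidation (right), with grey lines for genes, coloured lines for 5 named genes in each panel and a dashed line for the median. The TCA median ends at -0.63 on day 14 and that of fatty acid oxidation at 0.13.

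On day 14 against day 5, both arms had a median of -0.20, all genes one of 0.01, and no member passed 2-fold. At 1.5-fold, Cpt2 and Acadm were higher and Acadl and Decr1 lower, and no TCA gene was past it, where 12.2% of all genes were higher and 10.3% lower. For Decr1 a weaker probe set went the other way, at a log2 ratio of 0.64. Over the whole course, 16 of 17 TCA genes were below 0 (14 to 16 under the alternatives), with a median of -0.63 (-0.64 to -0.49 under the alternatives), and 6 of 16 fatty acid oxidation genes, with a median of 0.13 (0.10 to 0.16), where all genes had a median of 0.20. At 1.5-fold, 10 TCA genes were lower and none higher, and 3 fatty acid oxidation genes were higher (Cpt1a, Acadvl and Hadha) and 1 lower (Etfb), where 24.3% of all genes were lower and 35.3% higher. The 5916 genes above the floor on all 4 arrays, as all members were, had a median of 0.02. Consecutive comparisons share an array, and day 14 against day 2 is the sum of the steps, so these comparisons are not independent. The difference between the arms was not tested.

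**Figure D4:**
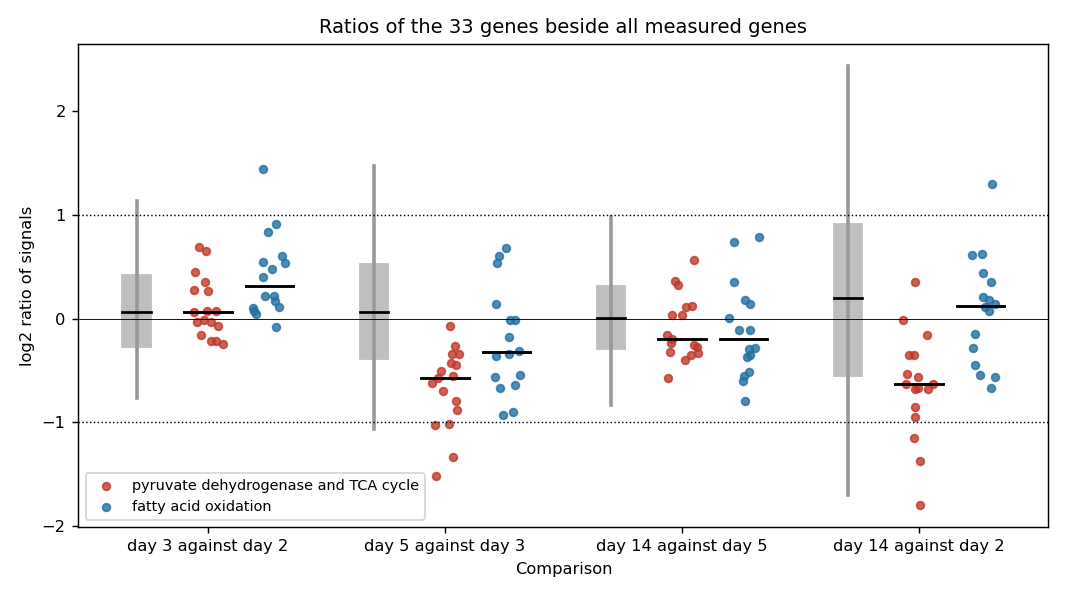
Log2 ratio of signals for the 17 TCA genes (red) and the 16 fatty acid oxidation genes (blue) in 4 comparisons, with black bars at the medians. In grey are all measured genes, as the median, the central 50% (box) and the central 90% (line), and dotted lines mark 2-fold. For day 5 against day 3 all red points lie below 0, and most points of both colours lie within the dotted lines.

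Day 14 was also set against day 3, a comparison added after the values were seen, since many members peaked on day 3. That choice favours lower ratios among the members, so their count beside the share of all genes does not show an excess. Here 8 of the 33 genes were lower and none higher, where 11.5% of 7774 genes were lower and 16.3% higher. These were Idh3a (3.65-fold), Suclg1 (2.47-fold), Dlat (2.46-fold), Pdhb (2.39-fold), Etfb (2.43-fold), Acaa2 (2.28-fold), Acadl (2.15-fold) and Acads (2.01-fold), 4 of each arm. As deposited, 5 were called, without Acads, Acadl and Acaa2, where 7.94% of all genes were lower, and the median of the fatty acid oxidation arm was 0.01 in place of -0.21, while that of the TCA arm was -0.45 in place of -0.67.

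The probe sets of a gene agreed in direction for most members. Of 16 members with several measured probe sets, 13 had 1 sign for day 5 against day 3, with Cpt1a, Hadh and Acat1 mixed, and 13 for day 14 against day 2, with Mdh1, Cpt1a and Hadh mixed. For day 14 against day 5, 11 had 1 sign, with Dlat, Mdh1, Mdh2, Cpt1a and Decr1 mixed, and for day 3 against day 2 only 9. Over the members, the SD between probe sets of a gene was 0.32 for the step from day 3 to day 5 and 0.48 over the whole course. Counting each of 56 measured probe sets, 9 were past 2-fold lower for day 5 against day 3 and none higher. No share over all probe sets was taken beside this count, in which Dlat and Idh3a each appear with several probe sets.

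**Figure D5:**
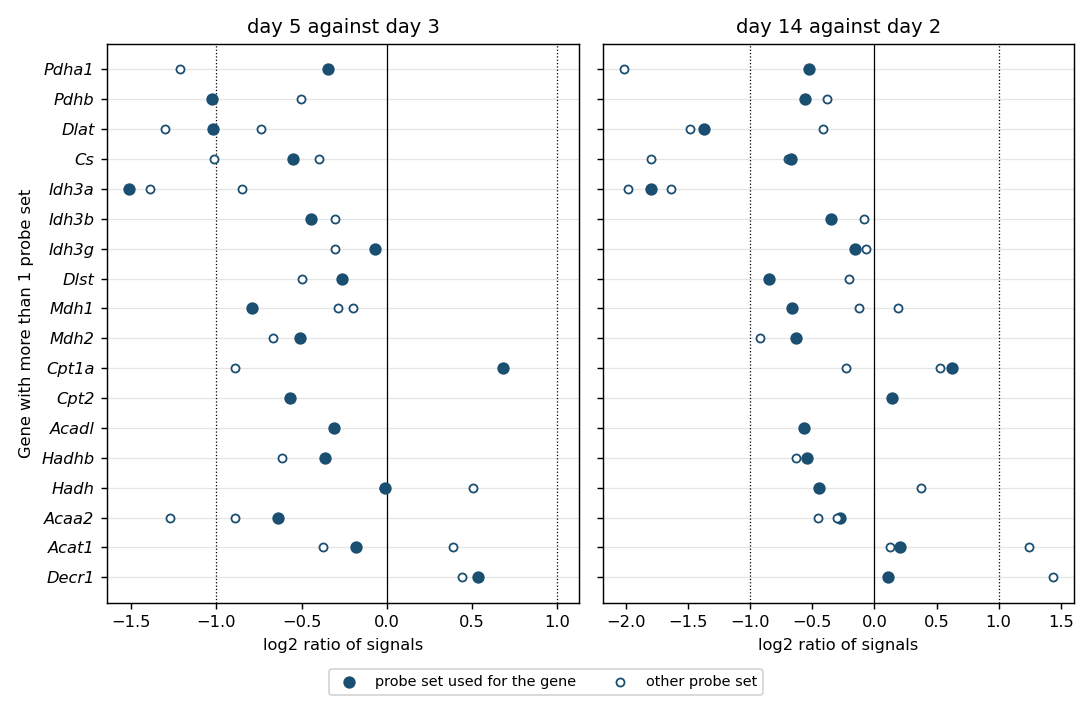
Log2 ratios of every measured probe set of the 18 genes with more than 1 probe set, for day 5 against day 3 (left) and day 14 against day 2 (right), with filled points for the probe set that stands for the gene, open points for the others and dotted lines at 2-fold. All Idh3a points lie to the left of those of Idh3b and Idh3g, and the points of Pdha1, Cs and Dlat are widely spaced on the right.

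Other genes of these pathways, from lists of enzymes not among the 33, were read in the same way. Of 15 measured TCA and pyruvate genes, 3 were lower on day 5 than on day 3: the malic enzyme Me2 (257 to 92.1), the aspartate transaminase Got1 (677 to 243) and Sdhd, a membrane anchor of succinate dehydrogenase (1908 to 830.3). A weaker Me2 probe set gave a log2 ratio of -0.15 for that step, against -1.48 for the one used. Got1 went on to 119 on day 14, and Pdk3, a kinase that switches off pyruvate dehydrogenase, and Me1 were lower on day 14 than on day 5 by 2.50-fold and 2.06-fold. Idh1, the cytosolic isocitrate dehydrogenase, went from 128 on day 2 to 494 on day 3, the one higher call of this list at the consecutive steps. A weaker Idh1 probe set, under the floor on day 2, gave a log2 ratio of 0.24, against 1.94 for the one used. Over all measured genes, 6.69% were called higher on day 3 against day 2. For day 5 against day 3, 5.97% were called lower, and for day 14 against day 5, 3.1%. The list had a median log2 ratio of -0.02 for day 5 against day 3, and the catalytic subunit Sdha had a log2 ratio of -0.02.

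The further fatty acid oxidation genes had a median log2 ratio of 0.12 for day 5 against day 3. Of 17 measured genes, 1 was called higher and none lower, where 11.6% of all genes were higher and 5.97% lower. The higher gene was Acadsb, a dehydrogenase of branched chains, at 79.1, 131, 282 and 498 on days 2, 3, 5 and 14. Each array was thus higher than the one before, as for Acadvl. On day 14 against day 5, 3 of 18 were higher and 2 lower, where 4.81% of all genes were higher and 3.1% lower. The carnitine carrier Slc22a5 went from 103 to 212, and the fatty acid transporter Slc27a1 from 43.9 to 102. Cd36, also a fatty acid receptor of endothelial cells and macrophages, went from under the floor to 96.1, at least 2.24-fold. The acyl-CoA synthetases Acsl4 and Acsl6 were 2.01-fold and 2.23-fold lower. Acad10 was 2.02-fold higher on day 3 than on day 2, the one call of 16 at that step, where 6.69% of all genes were higher.

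Of 6 measured peroxisomal oxidation genes none was called at the consecutive steps. At these steps, in order, 6.69%, 11.6% and 4.81% of all genes were higher and 1.8%, 5.97% and 3.1% lower. For day 14 against day 2, Acaa1a and Crot were called higher, where 22.8% of all genes were higher and 14.8% lower. The ketone body list had 1 measured gene, Oxct1, an enzyme of ketone body breakdown, and it read 450, 480.0, 774 and 730 on days 2, 3, 5 and 14. Among 13 measured regulators of mitochondrial genes, 3 were called on day 3 against day 2: the coactivator Ppargc1b was 2.51-fold higher, Mef2c at least 2.84-fold higher and Gabpb1 2.91-fold lower, although a second Gabpb1 probe set gave a log2 ratio of 0.15. Over all measured genes, 6.69% were higher and 1.8% lower on day 3 against day 2. None of 14 regulators was called at the 2 later consecutive steps, beside the shares of all genes given above for these steps. Ppargc1a and Ppara were under the floor on all arrays. Esrra, the estrogen-related receptor alpha, read 148, 175, 105 and 118.

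Genes of neighbouring pathways were read beside them. Of 50 measured oxidative phosphorylation genes, 49 were below 0 for day 5 against day 3, with a median of -0.56, and 4 were called lower, where 5.97% of all genes were. For day 14 against day 2, their median was -0.59. The 18 measured glycolysis genes had a median of -0.57 for day 5 against day 3, with 14 below 0 and 2 called lower, beside the same 5.97% of all genes. For day 14 against day 2, 16 were measured, with a median of -0.46. The fatty acid oxidation arm, at 0.13 for day 14 against day 2, was the one of these 4 groups with a median above 0. Over all measured genes the median was 0.20, with 41.5% of genes below 0, against 37.5% in this arm. No difference between these groups was tested.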

How the data were processed

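RNA of myogenic cells from 4 groups (days 2, 3, 5 and 14 after cardiotoxin), 1 array each, was measured on Affymetrix mouse 430A arrays after small sample labelling, per the labels' protocols. The authors deposited 1 signal intensity per probe set and array, made with MAS5 per the submitters' processing notes, from 0 to 15686 with settings not given in the sources used here. Arrays give no read depth, and their number limits the precision. The scale is linear with no centring, and medians were 29.6, 36.8, 53.5 and 54.1 on days 2, 3, 5 and 14. Arrays were scaled here to a common 2% trimmed mean with factors of 0.997, 1.13, 0.917 and 0.976, floored at 43.0 and taken to log2 (Python 3.11.15, pandas 2.3.3, NumPy 2.4.6).

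Of 22690 probe sets, 20393 had 1 gene symbol in the platform annotation, 691 several and 1606 none, and only the first were used; all 33 members matched RefSeq by gene ID. A ratio of 2-fold or more was a call, among genes above the floor on either array. Named genes were those called in a consecutive comparison or in day 14 against day 2, 1 further member of each step, and up to 6 called genes of each pathway list; others were named after their values were seen. The members and lists were chosen with earlier results of these data known. The calculation was tested on simulated data. Alternatives were 3 scalings, 3 floors, 2 probe set rules, a call at 1.5-fold and counting every probe set.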

Additional observations from a re-analysis of the deposited data

How the results depend on the processing

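No paired analysis was possible because each day has 1 array, and no array could be left out. A value was taken to keep its place where it moved by less than the SD between probe sets of a gene. This SD is that of single genes and is about as large as many arm medians, so few medians could lose their place. For day 5 against day 3, the fatty acid oxidation median went from -0.32 to -0.02 as deposited and still counted as in place. Of 96 alternative medians of the arms, 94 kept sign and place. The others were both from values as deposited: the TCA median for day 3 against day 2 was -0.12 in place of 0.06, and the fatty acid oxidation median for day 14 against day 3 was 0.0093 in place of -0.21. Of the alternative counts of called members, 45 stayed within 1.5-fold of the reported count and 15 did not. As deposited, 2 members were called for day 5 against day 3 in place of 4. Without probe sets ending in _x_at, _s_at or _a_at where a gene had another, 2 were called for day 3 against day 2 in place of 1. At 1.5-fold, 6, 14, 4 and 14 members were called for day 3 against day 2, day 5 against day 3, day 14 against day 5 and day 14 against day 2, in place of 1, 4, 0 and 4. Counting every measured probe set gave 2, 9, 1 and 11. These are counts of probe sets and not of genes, and no share over all probe sets was taken beside them. Of 1584 alternative ratios of single members 1561 kept their place and none of a called member changed sign. Many of these ratios could not move, since the probe set rules leave the 15 members with 1 probe set as they were. With the scaling of the arrays, the share of higher among all calls went from 78.8% to 52.6% as deposited for day 3 against day 2, from 66.1% to 87.4% for day 5 against day 3, and from 60.8% to 50.5% for day 14 against day 5. Signal near the floor limits Hadha, Suclg2, Acads and Cpt2, which lay under 300 on all arrays.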
